A study of Mus musculus with 13 samples.

Results

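The 6 whole-testis RNA-seq libraries of a Wfdc15a mouse study lay in 2 sets that did not follow genotype. The first set held both wild-type (WT) libraries and knockout (KO) library 1, named WT1, WT2 and KO1. The second set held the heterozygous (Het) library and KO libraries 2 and 3, named Het1, KO2 and KO3. These 6 libraries are 6 of the 13 in the series, and the other 7 were made from round spermatids. All mice were at postnatal day 25, and the KO, Het and WT labels refer to Wfdc15a, a gene of the WAP four-disulfide core family studied for its function in spermatogenesis. The labels do not describe the allele, the strain or a promoter, and nothing in them says whether the libraries of a genotype came from separate animals. Whole testis was stripped of its outer capsule and homogenised, and about 2 ng of total RNA went into each Smart-seq2 library, a method that primes full-length cDNA from polyadenylated RNA and amplifies it by PCR.

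The sets were drawn from the expression values of these same libraries. The difference between them is therefore a description and carries no test, and it says nothing about genotype. Each gene was counted as higher in the second set when all 3 of its libraries lay above all 3 of the first and the mean difference in log2(RPM + 1) was at least 1, and as lower in the mirror case. RPM is a read count scaled to the library total.

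The seminiferous tubule holds germ cells at successive stages, from spermatogonia through meiotic spermatocytes to round and then elongating spermatids, all nursed by the somatic Sertoli cell. Between the tubules lie the androgen-making Leydig cells, macrophages, vessels and stroma, and contractile peritubular myoid cells wrap the tubule wall. In elongating spermatids transition proteins and then protamines replace histones on the DNA. Their transcripts do not mark those cells alone. In the round spermatid libraries Prm1 was at 13.1 to 152 RPM and Tnp1, transition protein 1, at 19.7 to 194 RPM. In bulk RNA, fewer cells of a type and less RNA per cell cannot be told apart.

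KO1 stood apart from both WT libraries inside the first set. Its total was 7375270 reads, against 10419944 to 18438704 in the other 5 testis libraries, and 15435 genes had a read in it against 20115 to 22587. Several list medians are given with and without KO1, but not every value that rests on it is. The targeted gene Wfdc15a, on chromosome 2 from 164198863 to 164200130 of mm10, was at 212 and 207 RPM in WT1 and WT2, 116 RPM in KO1, 48.4 RPM in Het1 and 36.8 and 44.3 RPM in KO2 and KO3. Within each set the KO libraries were below the other genotype, yet the KO library of the first set was above the Het library of the second. Reads of the gene were present in every KO library, and without a described allele its level does not check the labels.

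The 4 genes that mark the split showed no overlap between the sets. Clu encodes clusterin, a secreted glycoprotein abundant in Sertoli cells, and it was at 16.3, 17.5 and 2.44 RPM in WT1, WT2 and KO1 and at 1149, 1159 and 1204 RPM in Het1, KO2 and KO3. The mean RPM of Clu was 96.9-fold higher in the second set. Cyp17a1, the Leydig cell enzyme that turns C21 steroids into androgen precursors, was at 11.99, 8.43 and 13.6 RPM in the first set and at 448, 396 and 284 RPM in the second, 33.2-fold higher. These somatic markers were high in the second set and low in the first. Prm1, protamine 1, went the other way, with 1106, 546 and 268 RPM in WT1, WT2 and KO1 and 26.2, 32.1 and 16.7 RPM in Het1, KO2 and KO3, so that its mean was 25.6-fold higher in the first set. Mt1, a metal-binding metallothionein, was at 1452, 1265 and 1395 RPM in the first set and at 139.8, 169 and 163 RPM in the second, 8.72-fold higher in the first. Prm1 spread widely inside the first set, where WT1 was highest and KO1 lowest, whereas Mt1 was nearly level there. As for the labelled tissue, Ldhc, a lactate dehydrogenase particular to male germ cells, was the most abundant gene in all 6 libraries.

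**Figure D1:**
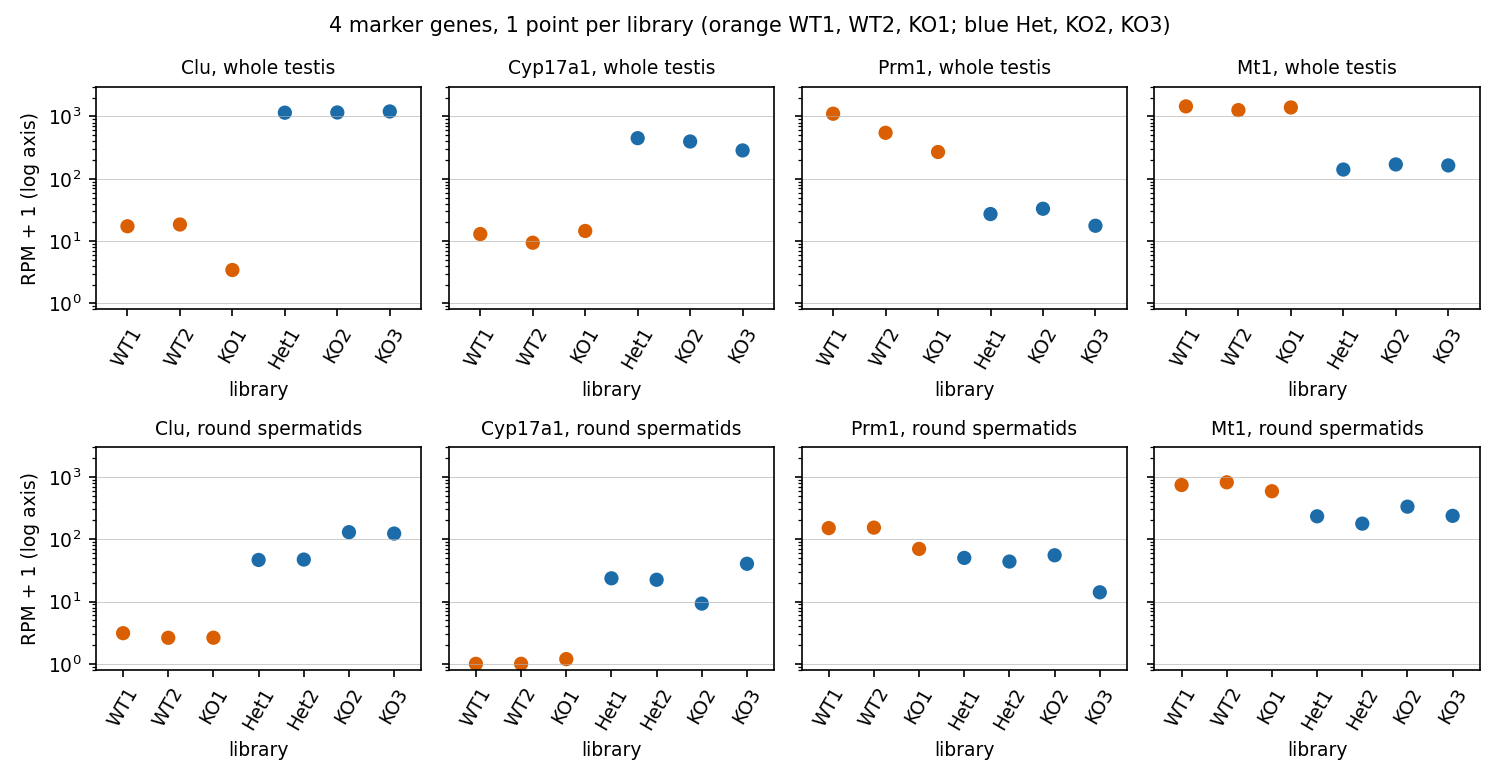
RPM plus 1 on a log axis for Clu, Cyp17a1, Prm1 and Mt1, with 1 point for each whole-testis library (top row) and each round spermatid library (bottom row). Orange points are WT1, WT2 and KO1 and blue points are the Het libraries, KO2 and KO3; in testis Clu stood at 2.44 to 17.5 RPM in the orange points and 1149 to 1204 RPM in the blue ones, and Prm1 was ordered the opposite way.

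The promoters of Prm1 and of Tnp1, transition protein 1, are shown because these spermatid genes were among those with the widest gap between the sets. Each line gives the 250 bases before the RefSeq start (GRCm38.p6, minus strand, 5′ to 3′), from chr16:10796824-10797073 for Prm1 and chr1:73015900-73016149 for Tnp1. Capitals mark the match to TGANNTCA, letters like those bound by CREM, the transcription activator of round spermatids.
Prm1: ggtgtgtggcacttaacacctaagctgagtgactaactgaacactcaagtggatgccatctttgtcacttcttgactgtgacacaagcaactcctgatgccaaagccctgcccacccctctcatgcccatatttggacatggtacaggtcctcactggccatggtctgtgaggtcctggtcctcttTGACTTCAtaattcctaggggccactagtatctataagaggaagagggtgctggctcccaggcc
Tnp1: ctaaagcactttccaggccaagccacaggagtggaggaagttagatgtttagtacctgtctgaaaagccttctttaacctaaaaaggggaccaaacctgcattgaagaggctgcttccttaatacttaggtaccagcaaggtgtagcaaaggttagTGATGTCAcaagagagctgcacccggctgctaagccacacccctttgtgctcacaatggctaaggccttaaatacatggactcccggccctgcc
The match begins 64 bases before the start in Prm1 and 94 bases before it in Tnp1. On either strand the same letters occurred in 3919 of 32851 RefSeq promoter windows (11.9%). Counted by gene, with a match in any of its windows, they occurred in 5 of the 13 genes with a window in the elongating spermatid list. The counts were 13 of 24 for round spermatids, 3 of 29 for meiotic spermatocytes and 0 of 16 for Sertoli cells. These counts are per gene and the 11.9% is per window, so they are not on the same footing. A match is a run of letters and not a measured binding site.

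Across the 18570 genes tested, those with at least 1 RPM in at least 2 of the 6 libraries, 8313 were higher in the second set (44.8%) and 1555 were lower (8.37%). The sets were chosen on these values, so nothing is read from either share. At the threshold, Gm27246 lay just inside at 1.0001 and Ell2 just outside at 0.9996 on the higher side, and Ndufs3 just inside at -1.002 and Pradc1 just outside at -0.9996 on the lower side. The median difference of all genes was +1.003, so list medians below are also given relative to it. With each library centred on its own median, which moves the median of all genes by -1.38, 2838 genes were higher and 5449 lower, so the higher share of the counted genes went from 84.2% to 34.2%. With centring every difference fell by 1.38, so that any difference between 0 and that size turned negative by construction. Rescaling by trimmed means of log ratios (TMM) gave 68.0% and quantile normalisation 50.3%. The balance between higher and lower genes thus rested on the scaling. There were 2179 genes that reached 1 RPM in no library of the first set, and 334 that reached it in none of the second.

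The libraries of the second set were close to one another and those of the first were not. Among 9853 genes with a mean of 10 to 1000 RPM, 0.568% to 1.57% lay at least 2-fold apart between any 2 libraries of the second set. WT1 and WT2 differed that much for 12.5% of genes, and KO1 differed from WT1 for 50.4% and from WT2 for 49.2%. Between libraries of different sets the share was 59.1% to 67.2%. Pearson's r across genes, a description with genes that share a library, was 0.973 to 0.979 inside the second set, 0.957 for WT1 and WT2, 0.822 and 0.830 for KO1 with them, and 0.730 to 0.759 between sets. KO1 lay at least 2-fold from the second set for 59.1% to 61.0% of genes, so it stood far from both. On principal components, the first held 71.6% of the variance and separated the sets, and the second held 21.3% and separated KO1 (134.4) from WT1 (-71.6) and WT2 (-64.9). Each fitted alone, the set accounted for a median of 67.3% of a gene's variance, and KO against the rest for 14.6%. The sets were drawn from these values and overlap with genotype, so the 2 shares cannot be weighed against each other.

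**Figure D2:**
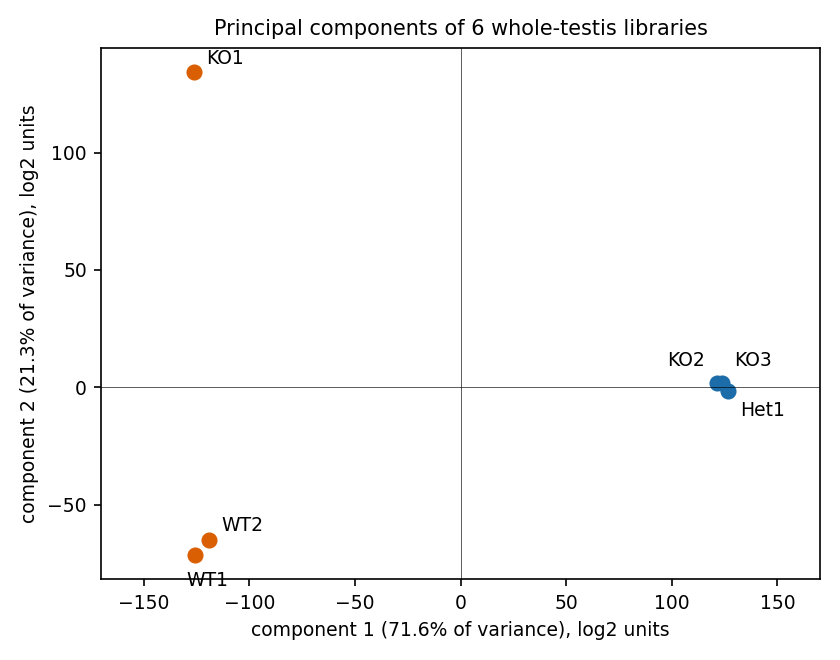
The 6 whole-testis libraries on the first and second principal components of log2(RPM + 1) over 18570 genes, with each axis labelled with its share of the variance. Het1, KO2 and KO3 (blue) lie together on the right, while WT1 and WT2 lie apart from KO1 (all orange) along the second component.

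Single genes placed KO1 on either side. Of 5562 genes whose WT mean differed from the second set by at least 2 log2 units, KO1 was nearer the second set for 1571 (28.2%). It lay at least 2-fold above both WT libraries for 3334 genes and at least 2-fold below both for 3513, whereas Het1 lay that far above KO2 and KO3 for 169 genes and below for 137. Genes without a read were also more frequent in KO1. Of 3416 genes with a mean of 20 to 50 RPM in the second set, 8.37% had no read in KO1, 0.820% in WT1 and 1.55% in WT2. Of 2341 genes with that mean in the first set, 1.28% had no read in KO1 and 0 had none in the other 5 libraries. Choosing genes by their level in a set itself limits how many can lack a read there. Without KO1 the split counted 9155 genes higher and 2103 lower.

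Among the genes with the widest gap in favour of the second set, several belong to somatic cells or spermatogonia. Ctsl, cathepsin L, a lysosomal protease made in quantity by Sertoli cells, was at 11.3, 11.8 and 1.76 RPM in WT1, WT2 and KO1 and at 516, 502 and 556 RPM in Het1, KO2 and KO3. Uba1y, the Y-linked ubiquitin-activating enzyme, had no read in any library of the first set and 56.8, 57.9 and 59.6 RPM in the second, at least 806-fold higher against a floor of 3 reads over the first set. In both genes the 3 libraries of the second set lay close together. Mrc1, the mannose receptor of macrophages, was likewise without a read in the first set and at 46.7, 47.5 and 33.9 RPM in the second, at least 593-fold higher by the same floor. Frzb, a secreted Wnt-binding protein, was at 0.108, 0 and 0 RPM against 49.5, 52.5 and 44.0 RPM. Hdac6, the cytoplasmic tubulin deacetylase, was at 2.01, 1.65 and 0 RPM against 137, 126 and 137 RPM.

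Further genes of this kind were Nxf3, Hells, Hyou1, Col18a1 and Fads2. Hyou1, a chaperone of the endoplasmic reticulum, was at 6.996, 3.99 and 6.78 RPM in the first set and 291, 291 and 277 RPM in the second. Fads2, a fatty acid desaturase, was at 1.63, 5.64 and 0.407 RPM against 237, 254 and 211 RPM. Hells, a chromatin remodeller of the SNF2 family, was at 1.25, 1.71 and 1.22 RPM against 94.4, 105 and 95.2 RPM. All 3 were 48.4-fold to 91.5-fold higher in mean RPM. Nxf3, of the RNA export factor family, was 161-fold higher, and Col18a1, a collagen of basement membranes, was 89.1-fold higher.

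The 12 genes with the widest gap the other way had varied roles. Beside Prm1 and Mt1, Tnp1 was at 905, 447 and 194 RPM in WT1, WT2 and KO1 and at 26.5, 26.6 and 18.2 RPM in Het1, KO2 and KO3, and like Prm1 it was highest in WT1 and lowest of the first set in KO1. Uqcc2, an assembly factor of respiratory complex III, was at 899.8, 954 and 599.6 RPM against 59.3, 63.2 and 71.9 RPM. Tsacc, a co-chaperone that activates a testis-specific kinase, was at 1251, 1647 and 901 RPM against 87.5, 123 and 118 RPM. These levels overlapped in no library. Rpl36, a protein of the large ribosomal subunit, was at 559, 561 and 436 RPM against 26.8, 51.8 and 65.7 RPM, 10.8-fold higher in the first set. The mean of Elob (elongin B), Polr2i (a subunit of RNA polymerase II), Atp5e (ATP synthase) and Uqcrq (complex III) was 8.41-fold, 8.12-fold, 12.5-fold and 10.2-fold higher there. The histone H2A variant H2al3 was 14.6-fold higher and the zinc finger gene Zfp423 10.2-fold higher. Of the 12 genes with the widest gap in this direction, Zfp423 alone had a longest annotated transcript over 2000 bases, at 4907, and of the 12 with the widest gap in the other, Clu alone had one under 2000, at 1810.

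All 25 Sertoli cell genes of the list were tested and all 25 were higher in the second set, where 44.8% of all genes were. Their median difference was +3.48, or +2.48 relative to all genes, and with Inhbb and Amh, which had no read in the first set, placed at their bound it was +3.73. Summed over the list, RPM was 126, 130 and 72.8 in WT1, WT2 and KO1 and 2573, 2723 and 2968 in Het1, KO2 and KO3. No member overlapped between the sets. Amhr2, the receptor of anti-Mullerian hormone, was at 5.10, 7.41 and 1.08 RPM against 146, 194 and 189.8 RPM. Wt1, a transcription factor of the Sertoli cell lineage, was at 0.217, 1.65 and 5.56 RPM against 55.5, 52.3 and 52.4 RPM. Sox9, the factor that sets Sertoli cell fate, was at 0.108, 0.760 and 0 RPM against 6.62, 16.1 and 19.8 RPM. Dhh, a hedgehog ligand, had one of the smaller differences of the list at +1.96. Vim, the intermediate filament vimentin, which other somatic cells also make, was at 6.40, 10.4 and 25.9 RPM against 97.7, 124 and 155 RPM. Only 4 of the 25 passed the filter on low values through the second set alone and so had to differ. Centring left 22 of the 25 higher and 0 lower, beside 2838 and 5449 of all 18570 genes.

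Leydig cell genes were higher in the second set for 15 of the 18 tested, where 44.8% of all genes were. The list median was +3.11, or +2.11 relative to all genes, and Hsd11b1 was under the filter. The sum over the list was 334, 335 and 234 RPM in the first set and 1183, 1173 and 998 RPM in the second. Cyp11a1, which starts steroid synthesis by cleaving the cholesterol side chain, was at 5.75, 8.36 and 0.271 RPM against 119, 129.5 and 90.5 RPM. Star, which carries cholesterol into the mitochondrion, was at 1.68, 2.28 and 2.58 RPM against 35.6, 41.1 and 25.8 RPM. Lhcgr, the receptor for luteinising hormone, was at 0.217, 0.570 and 0 RPM against 24.2, 24.5 and 18.7 RPM. These 3 genes were low in WT1, WT2 and KO1 alike. Scarb1, a lipoprotein receptor, was at 16.4, 19.96 and 5.97 RPM against 98.4, 112 and 127 RPM. Insl3, the insulin-like peptide of Leydig cells, overlapped, with 18.4, 13.2 and 88.7 RPM against 49.9, 77.4 and 44.96 RPM, and KO1 was the highest of the 6. Fdx1, ferredoxin 1, which passes electrons to Cyp11a1 and also serves mitochondria of other cells, overlapped too and was highest in WT1 and WT2, at 164, 154 and 44.2 RPM against 56.6, 62.4 and 65.3 RPM. In this list 4 members passed the filter through the second set alone. Centring left 11 of the 18 higher and made 2 lower, beside 2838 and 5449 of all 18570 genes.

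Genes of stroma and extracellular matrix were higher in the second set for 17 of 18, where 44.8% of all genes were. Here KO1 stood between WT and the second set. The list sum was 46.0 and 63.9 RPM in WT1 and WT2, 369 RPM in KO1, and 1511, 1617 and 2233 RPM in Het1, KO2 and KO3. Its median was +3.73, +2.72 relative to all genes, and +4.44 without KO1. Of the 18, 11 were higher and 0 lower with centred libraries, beside 2838 and 5449 of all 18570 genes. Col3a1, a fibrillar collagen, was at 2.71, 1.14 and 41.8 RPM against 294, 273 and 499 RPM. Dcn, the collagen-binding proteoglycan decorin, was at 2.39, 3.29 and 72.9 RPM against 148, 146 and 166 RPM. Sparc, a matrix glycoprotein, was at 11.5, 22.5 and 78.4 RPM against 408, 451 and 489 RPM. For each, KO1 lay above both WT libraries and below the second set. Lum, the proteoglycan lumican, was the 1 member not separated, at 0, 0 and 2.85 RPM against 1.63, 2.04 and 4.50 RPM. Col1a2, the second chain of type I collagen, was at 5.42, 4.56 and 69.0 RPM against 164, 182 and 301 RPM.

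Of 12 peritubular myoid genes, 9 were higher, where 44.8% of all genes were, and 1 was lower. Of the 12, 3 passed the filter through the second set alone. After centring 5 were higher and 1 lower, beside 2838 and 5449 of all 18570 genes. The list median was +2.23, or +1.22 relative to all genes. Acta2, smooth muscle actin, was at 6.51, 12.4 and 0.271 RPM against 123, 132 and 153 RPM. Myh11, smooth muscle myosin, was at 4.50, 3.61 and 2.85 RPM against 54.3, 54.2 and 47.998 RPM. Actg2, an enteric smooth muscle actin, was the lower one, at 83.0, 55.5 and 199 RPM against 32.0, 45.3 and 29.7 RPM, and in round spermatids it was at 50.3 to 141 RPM. The contractile genes and Actg2 thus differed in opposite directions between the same libraries. The list sum was 111, 93.4 and 225 RPM in the first set, of which Actg2 made most, and 372, 432 and 462 RPM in the second.

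Macrophage and leukocyte genes were higher for 12 of the 16 tested, where 44.8% of all genes were. Aif1 and H2-Ab1 were lower, and the median was +2.39. Passing through the second set alone were 4 of the 16. After centring 7 of the 16 were higher and 2 lower, beside 2838 and 5449 of all 18570 genes. Csf1r, the receptor for the macrophage growth factor, was at 1.36, 2.60 and 0.814 RPM against 24.4, 18.1 and 28.6 RPM. Lyz2, lysozyme of myeloid cells, was at 3.20, 1.52 and 8.81 RPM against 37.2, 29.0 and 35.5 RPM. H2-Ab1, an MHC class II chain, was at 103, 95.4 and 63.7 RPM against 15.3, 17.1 and 18.0 RPM. Aif1, a calcium-binding protein of macrophages, was at 199.6, 152 and 249.8 RPM against 76.9, 89.6 and 65.6 RPM, while its levels in round spermatid libraries were 103 to 296 RPM. Cx3cr1, a chemokine receptor, was at 311, 394 and 261 RPM against 891, 803 and 773 RPM, and at 583 to 1099 RPM in round spermatids. The list sums, 628, 655 and 586 RPM against 1142, 1069 and 1037 RPM, were mostly Cx3cr1, Aif1 and H2-Ab1. With centred libraries the Cx3cr1 difference of +1.37 became -0.02, by the shift common to all genes. Endothelial genes were higher for 9 of the 12 tested, where 44.8% of all genes were, with a median of +1.78. Of these 12 endothelial genes, 3 passed the filter through the second set alone and so had to differ. With centred libraries 2 were higher, beside 2838 of all 18570 genes, and the median was +0.39. Their sums were low throughout, at 14.6, 17.0 and 27.4 RPM against 69.8, 82.4 and 65.5 RPM. Of 4 erythroid genes 1 was higher, where 44.8% of all genes were. It was Alas2, which starts heme synthesis. The globin gene Hba-a1 was at 11.1, 4.31 and 361 RPM against 23.5, 42.3 and 35.8 RPM, so KO1 was the highest of the 6 by far; it has a near-identical copy, Hba-a2, and the split of reads between them is uncertain. The erythroid median of +0.51 was -0.87 with centred libraries and -0.57 with quantile normalisation, and +2.18 without KO1.

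Germ cell genes differed by stage. Genes of spermatogonia were higher in the second set for 14 of 16 tested, where 44.8% of all genes were. The list median was +2.75, and sums were 46.4, 37.5 and 131 RPM against 624, 709 and 719 RPM. Kit, the stem cell factor receptor of differentiating spermatogonia, was at 0.651, 1.27 and 0.271 RPM against 42.5, 46.0 and 60.1 RPM. Stra8, the retinoic acid target that opens meiosis, was at 2.71, 1.84 and 0 RPM against 49.8, 22.2 and 37.4 RPM. Dazl, an RNA-binding protein of germ cells, was at 15.7, 10.6 and 52.6 RPM against 361, 435 and 377 RPM. These 3 did not overlap between the sets. Gfra1, the GDNF co-receptor of stem spermatogonia, did, at 5.42, 2.41 and 45.7 RPM against 10.5, 5.65 and 6.27 RPM. Nanos2, Nanos3 and Neurog3 were under the filter, and 4 of the 16 passed it through the second set alone. Centring left 10 of the 16 higher and 0 lower, beside 2838 and 5449 of all 18570 genes.

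Of the 35 meiotic spermatocyte genes, 27 were higher in the second set, where 44.8% of all genes were, and 1 was lower. The list median was +2.41, or +1.41 relative to all genes. After centring 16 of the 35 were higher and 3 lower, beside 2838 and 5449 of all 18570 genes. The sums were 2576, 2796 and 2635 RPM against 6530.3, 6533 and 6279.6 RPM. Dmc1, the meiotic recombinase, was at 1.68, 1.84 and 0 RPM against 29.7, 33.3 and 29.1 RPM. Tex11, an X-linked gene needed for crossovers, was at 1.84, 3.48 and 0 RPM against 54.4, 79.8 and 60.2 RPM. Sycp2, of the chromosome axis, was at 47.7, 73.0 and 303 RPM against 616, 641 and 485 RPM. Not all axis and synapsis genes took that course. Sycp3, a partner of Sycp2, was at 198, 312 and 217 RPM against 396, 487 and 520.3 RPM, with a difference of +0.97. Syce1, of the central element, was at 982, 1004 and 399 RPM against 531, 540.3 and 573 RPM and overlapped. Syce3, a small central element protein, was at 120.4, 109.5 and 116 RPM against 11.9, 16.9 and 21.4 RPM, the 1 lower member, and its longest transcript has 480 bases. Stag3, a meiotic cohesin subunit, was at 333, 322 and 531 RPM against 1104, 947 and 947 RPM, a difference of +1.37 that became -0.01 by the same shift.

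The piRNA pathway, which silences transposons in germ cells, had 12 of 17 members higher and 3 lower, beside 44.8% and 8.37% of all genes. With centred libraries 6 were higher and 4 lower, beside 2838 and 5449 of all 18570 genes. Ddx4, the germ cell RNA helicase, was at 269, 373 and 209 RPM against 1677, 1621 and 1582 RPM. Piwil2, a piRNA-binding Argonaute, was at 14.3, 28.2 and 81.4 RPM against 433, 428 and 347 RPM. Gtsf1, a small zinc finger partner of Piwi proteins, went the other way, at 2327, 2530.2 and 1467 RPM against 348, 356 and 371 RPM. Mael, another component, was at 5036, 5318 and 3549.6 RPM against 2379.7, 2237 and 2143 RPM, a difference of -1.02 that was 0.02 with quantile normalisation. Tdrkh, a Tudor protein on mitochondria, was the third lower member, at 434, 261 and 348 RPM against 164, 156 and 149 RPM. Partners in 1 pathway thus differed in opposite directions.

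Of 27 round spermatid genes, 4 were higher and 5 lower, beside 44.8% and 8.37% of all genes. The list median was -0.21, or -1.22 relative to all genes. These figures depended on the scaling. With centred libraries 0 were higher and 18 lower, beside 2838 and 5449 of all 18570 genes, with a median of -1.60. The median was -0.91 with TMM rescaling, and it was 0.02 once a loess on transcript length was removed. Ldhc was at 18006, 15991 and 6296 RPM in WT1, WT2 and KO1 and at 6247, 5521 and 5476 RPM in Het1, KO2 and KO3, so KO1 was nearly level with the second set. Pgk2, the germ cell phosphoglycerate kinase, was at 659, 609 and 555 RPM against 235, 251 and 245 RPM. Spaca1, an acrosomal membrane protein, was at 37.1, 36.4 and 90.3 RPM against 153, 184 and 147 RPM. Zpbp2, a zona pellucida binding protein, was at 985, 1002 and 739 RPM against 605, 547 and 543 RPM, with a difference of -0.67 that misses the count. Acr, the acrosomal protease acrosin, was at 80.5, 90.8 and 326 RPM against 138, 165 and 149.9 RPM, and Gapdhs, the sperm glyceraldehyde-phosphate dehydrogenase, at 41.5, 33.6 and 344 RPM against 17.1, 27.0 and 20.3 RPM. For both, KO1 was the highest of the 6 libraries. The list sums were 24181, 21761 and 12367 RPM against 11050.2, 10317 and 9924 RPM.

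Genes of elongating spermatids and sperm chromatin were lower in the second set for 9 of the 15 tested, where 8.37% of all genes were, and 1, Akap3, was higher. Their median was -2.23, -3.23 relative to all genes and -2.21 without KO1, and sums were 7543, 4454 and 4032 RPM against 2696, 2769 and 2630.1 RPM. Prm2, protamine 2, was at 1299, 461 and 249.9 RPM against 54.2, 57.6 and 30.0 RPM. Tnp2, transition protein 2, was at 464, 198 and 129 RPM against 12.5, 20.4 and 6.02 RPM. Hils1, a spermatid linker histone, was at 312, 179 and 229.7 RPM against 43.9, 52.7 and 54.3 RPM. The sperm chromatin genes were thus lower together, with Prm1, Prm2, Tnp1 and Tnp2 highest in WT1. Genes of the tail in the same list did not share this. Odf2, of the outer dense fibre, was at 1839, 1704 and 1382 RPM against 1906, 1889 and 1953 RPM. Akap4, of the fibrous sheath, overlapped at 260.3, 169 and 285 RPM against 246, 258 and 186 RPM, and Akap3, its sheath partner, was at 27.7, 25.5 and 114 RPM against 153, 171 and 136 RPM. Smcp, the mitochondrial capsule gene, was at 16.5, 13.7 and 182 RPM against 33.3, 39.4 and 32.8 RPM, with KO1 again highest. The 9 lower members include Oaz3, the testis antizyme, at 1174, 653 and 862 RPM against 178, 199.8 and 178 RPM.

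Genes of the ribosome were lower in the second set. Of 79 ribosomal protein genes 60 were lower, where 8.37% of all genes were, and 1, Rpl10, was higher. Their median was -1.95, or -2.96 relative to all genes. Together they took 48289, 50604 and 27821 RPM in WT1, WT2 and KO1 and 9126, 11076 and 13074 RPM in Het1, KO2 and KO3. Rps29, of the small subunit, was at 1043, 1131 and 604 RPM against 50.5, 72.3 and 100.1 RPM. Rplp0, of the stalk, was at 3729, 3061 and 2409 RPM against 949, 1038 and 1164 RPM. Rpl4, of the large subunit, overlapped at 429, 373 and 173 RPM against 364, 399.5 and 437 RPM. The list thus held genes that overlapped beside genes that lay far apart. Ribosomal protein genes have many processed copies in the genome, and since the counting method is not given in the sources used here, their reads may be split.

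Subunits of the respiratory chain encoded in the nucleus were lower for 37 of 60, where 8.37% of all genes were, and higher for 4. Their median was -1.74, or -2.75 relative to all genes. Cox7a2, of complex IV, was at 1952, 2086 and 809 RPM against 163, 195 and 185 RPM. Uqcrq, of complex III, was at 845, 839 and 552 RPM against 66.6, 75.6 and 77.9 RPM. Ndufs1, the largest subunit of complex I, was among the 4 higher ones, at 40.5, 81.3 and 36.5 RPM against 351, 292 and 297 RPM. Sdha, the flavoprotein of complex II, was at 259.7, 235 and 73.4 RPM against 387, 367 and 335 RPM, and its difference of +1.13 became -0.25 by the shift of centring. The other higher members were Cyc1 and Cox7b. Subunits of 1 complex therefore differed in opposite directions, as Ndufs1 and Ndufa7 did: Ndufa7 was at 630.3, 618 and 412 RPM against 73.2, 79.2 and 99.4 RPM. The 13 genes of the mitochondrial genome had no read in any library.

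Of 15 genes tied to nuclear speckles and nuclear long RNAs, 9 were higher in the second set, where 44.8% of all genes were, and 0 lower. With centred libraries 2 were higher and 1 lower, beside 2838 and 5449 of all 18570 genes. In the other 6 KO1 was above all libraries of the second set, and 3 of these are given here. Malat1, a nuclear long RNA, was at 6.35 and 8.30 RPM in WT1 and WT2, 188 RPM in KO1 and 155, 163 and 157 RPM in Het1, KO2 and KO3. Son, a speckle scaffold protein, was at 19.6 RPM in WT1, 26.4 RPM in WT2, 184 RPM in KO1 and 157, 159.5 and 163 RPM in the second set. Srrm1, a splicing coactivator, was at 11.01 and 14.1 RPM, then 180.1 RPM, then 141, 149 and 146 RPM. For these 3 the WT libraries stood alone at the low end. Rbm25, a splicing regulator among the 9, was at 8.35 and 17.8 RPM in WT1 and WT2, 99.3 RPM in KO1 and 165, 169 and 152 RPM in the second set, so there KO1 lay between. The list sum was 119 and 145 RPM in WT, 983 RPM in KO1 and 1193, 1239.6 and 1196 RPM in the second set. The median was +2.39 and +3.19 without KO1; with Snhg11, which had no read in the first set, at its bound it was +2.48.

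Other lists were mixed. Of 12 metallothionein and stress genes tested, 5 were higher and 3 lower, beside 44.8% and 8.37% of all genes. Their median of +0.59 was -0.80 with centred libraries and -0.50 with quantile normalisation. Mt2, a metallothionein beside Mt1, was at 145, 145 and 181 RPM against 32.1, 43.5 and 50.6 RPM, and the heat shock co-chaperone Dnajb1 was at 339, 383 and 326 RPM against 120.3, 143 and 155 RPM. Hsph1, a chaperone of the Hsp110 family, was the reverse, at 14.8, 9.57 and 11.1 RPM against 88.0, 71.2 and 77.3 RPM. The immediate early gene Fos was at 0.488, 0 and 16.3 RPM against 1.54, 0.942 and 0.190 RPM, with KO1 alone high. Sterol synthesis genes were higher for 10 of 19 and lower for 0, near the 44.8% of all genes, with a median of +1.92. Of the 19, 2 passed the filter through the second set alone. With centred libraries 7 were higher and 4 lower, beside 2838 and 5449 of all 18570 genes, and the median was +0.54. Hmgcs1, which makes HMG-CoA in the cytosol, was at 10.6, 2.85 and 4.75 RPM against 90.8, 91.6 and 91.4 RPM, whereas Fdft1, squalene synthase, was at 475, 458 and 521 RPM against 311, 339 and 317 RPM. Of 19 axonemal dynein genes 7 were higher, a smaller share than the 44.8% of all genes, and 3 were lower. With centred libraries 0 were higher and 6 lower, beside 2838 and 5449 of all 18570 genes, and the median of +1.11 was -0.27. Dnah17, a dynein heavy chain, was at 63.1, 53.2 and 138 RPM against 263, 259.5 and 240.5 RPM, and the light chain gene Dynlt1b was at 1081, 1136 and 577 RPM against 201, 194 and 197 RPM. All 7 higher members were heavy chains, and the 3 lower ones were the light chain genes Dynlt1b, Dynll1 and Dynll2, although the heavy chain gene Dnah5 stood at -0.89. Small spliceosome proteins (2 of 18 higher, 4 lower) and the proteasome core (2 of 14 higher, 1 lower) stood beside 44.8% and 8.37% of all genes. Their medians were +0.20 and +0.13, and -1.18 and -1.25 with centred libraries. Without KO1 these medians were +0.02 and -0.51.

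Genes often used as references for normalisation differed between the sets too. Of 13, 11 were higher, where 44.8% of all genes were, and 1, Ppia, was lower. Among the 13, 2 passed the filter through the second set alone and so had to differ. The count depended on the scaling. With centred libraries 4 were higher and 2 lower, beside 2838 and 5449 of all 18570 genes, and the median of +1.57 was +0.19. Actb, cytoplasmic actin, was at 362, 199.7 and 239 RPM against 733, 707 and 778 RPM. Polr2a, the largest subunit of RNA polymerase II, was at 7.59, 3.36 and 27.3 RPM against 348, 297 and 240.5 RPM, while Polr2i, a small subunit, was at 315, 289 and 293 RPM against 31.8, 40.2 and 38.6 RPM. Tbp, the TATA-binding protein, kept the sets apart by little, at 192, 219.7 and 171 RPM against 244, 265 and 243 RPM and a difference of +0.37. Large and small subunits of the same polymerase were therefore high in opposite sets.

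**Figure D3:**
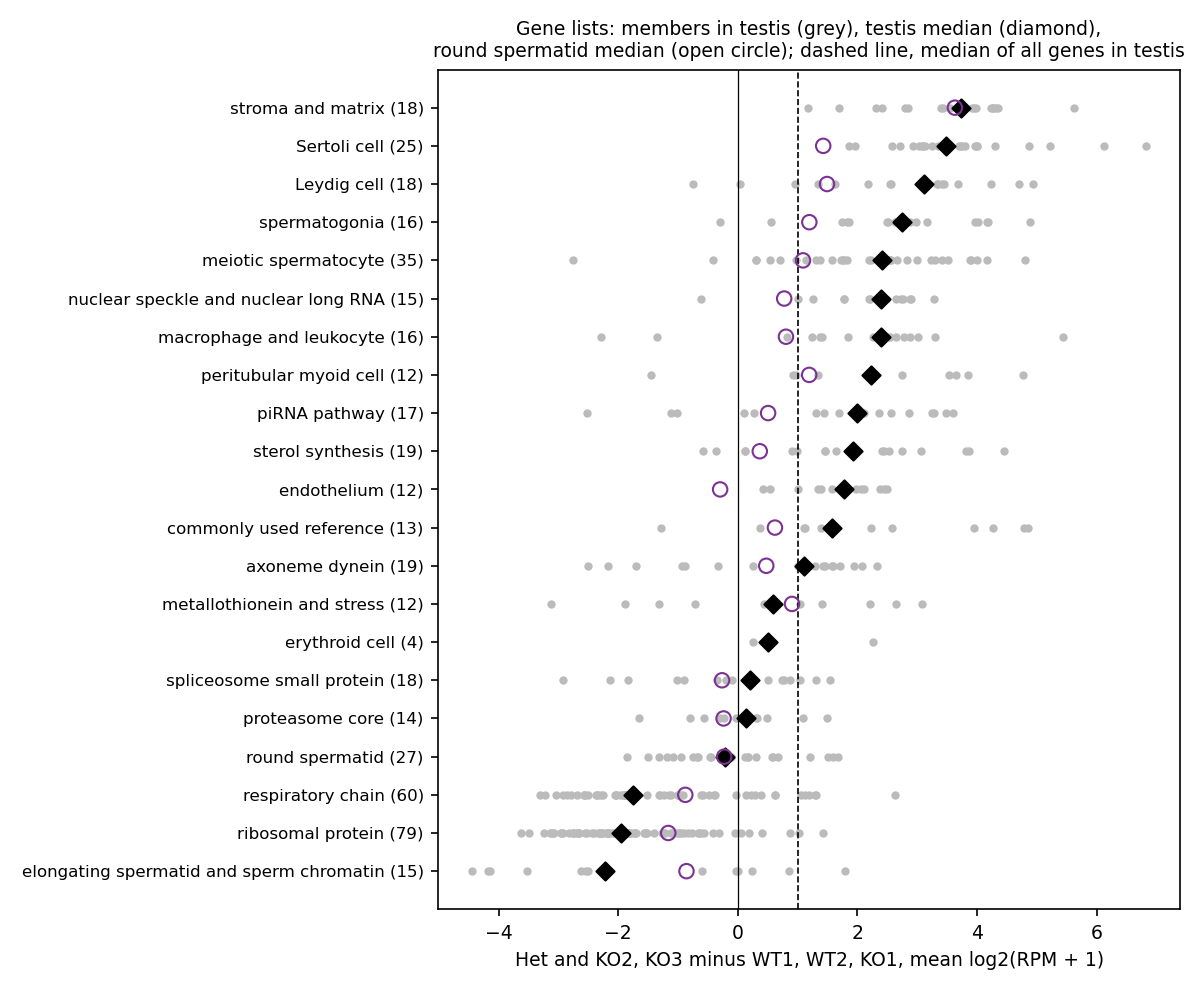
Difference in mean log2(RPM + 1), second set minus first, for the members of 21 gene lists in testis (grey points, number tested in brackets) with the testis median (diamond) and the round spermatid median (open circle). The solid line is 0 and the dashed line the testis median of all genes (+1.003); the somatic (except erythroid), spermatogonial and meiotic lists have medians to the right of the dashed line, and sperm chromatin, ribosomal protein and respiratory chain lists to the left of 0.

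Transcript length moved with the split, and its part in it was not tested. Length here is that of a gene's longest transcript in GENCODE M21. Genes with transcripts under 1000 bases took 17.1%, 17.6% and 14.3% of RPM in WT1, WT2 and KO1 and 5.196%, 5.33% and 5.48% in Het1, KO2 and KO3. Those over 4000 bases took 15.8%, 16.6% and 22.8% against 34.9%, 33.7% and 33.1%. Among protein-coding genes with a mean of 20 to 200 RPM, the median difference was -1.30 for the 321 genes of 500 to 1000 bases, -0.03 for the 984 of 1000 to 2000, +1.42 for the 1090 of 3000 to 4000 and +2.07 for the 168 over 10000. Each longer class had a higher median than the class before it. KO1 minus WT took the same order, from -0.34 under 500 bases to +1.35 over 10000, although both lay in the first set. Over 15183 protein-coding genes, Spearman's rho of the difference was 0.32 with transcript length, 0.30 with exon number, 0.18 with gene span and -0.06 with GC content, as descriptions over genes that share the same 6 libraries.

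**Figure D4:**
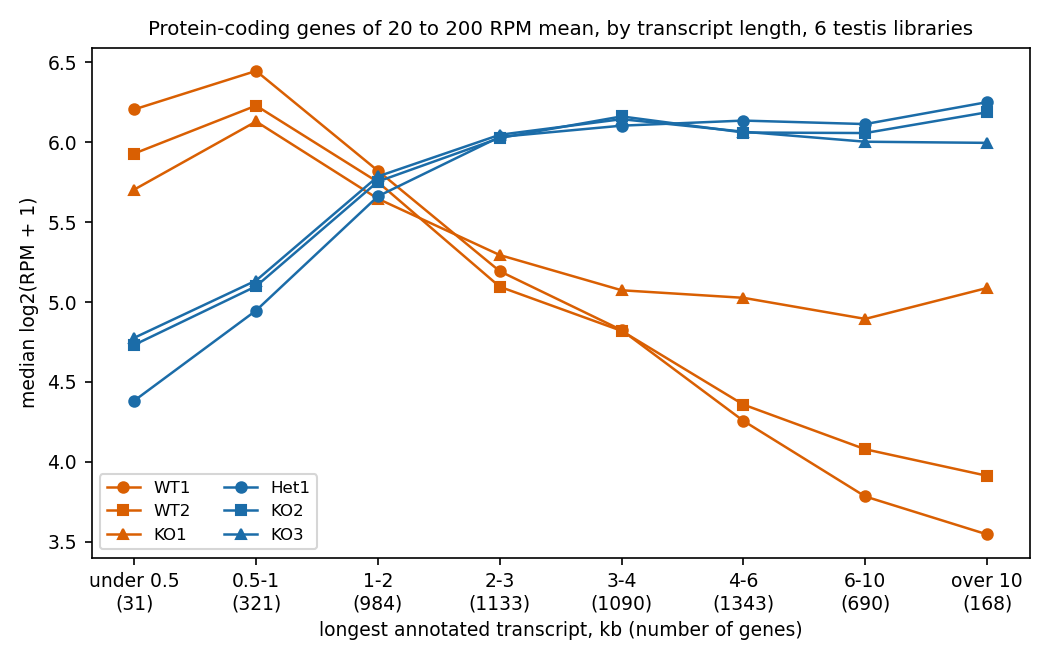
Median log2(RPM + 1) of protein-coding genes with a mean of 20 to 200 RPM in 8 classes of transcript length, with 1 line per whole-testis library and the number of genes in brackets. The lines of WT1 and WT2 (orange) fall with length from the class of 500 to 1000 bases on. That of KO1 (orange) falls to 4.89 at 6000 to 10000 bases and is 5.09 over 10000. Those of Het1, KO2 and KO3 (blue) rise to the class of 3000 to 4000 bases. Beyond it they change little, and KO3 goes from 6.14 there to 5.996 over 10000. The colours cross at 1000 to 2000 bases, and KO1 lies above the WT libraries for the longest genes.

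Cell type lists differed from one another at like lengths. Germ cell lists had a median of -2.51 under 1000 bases (14 genes), +0.31 from 1000 to 2000 (34 genes), +1.51 from 2000 to 4000 (39 genes) and +1.82 above (42 genes). Somatic cell lists had +1.69 (13 genes), +2.84 (30 genes), +2.80 (30 genes) and +3.36 (32 genes) in the same classes. The somatic median was thus above the germ cell median in each class, and in both it was lowest for the shortest transcripts. Once a loess on transcript length was removed from each library, the median relative to all genes was +2.89 for Sertoli cell, +2.104 for Leydig cell and +2.39 for stromal genes. It was -2.13 for elongating spermatid, -2.099 for ribosomal protein and -1.70 for respiratory chain genes. By biotype, protein-coding genes had a median of +1.2001, antisense transcripts +0.53 (1485 genes) and long intergenic RNAs -0.15 (1477 genes). Whether reads were assigned by strand is not given in the sources used here, so reads of an antisense gene and its partner cannot be told apart.

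The round spermatid libraries, sorted by DNA dye at the same age, gave the same names a second reading. They were compared as Het1, Het2, KO2 and KO3 against WT1, WT2 and KO1, where Het2 was placed by its genotype, and this split was known from the same table, so it too has no test. Of 18075 genes tested 2505 were higher (13.9%) and 810 lower (4.48%) in the Het, KO2 and KO3 libraries, with a median difference of +0.22. Both cell types were tested for 16942 genes. Of 7497 genes higher in the testis comparison and tested here, 2247 (30.0%) were also higher in round spermatids, and these were 90.5% of the 2483 round spermatid genes. Of 1525 lower in testis 538 (35.3%) were also lower, which made 68.1% of the 790 round spermatid genes. Opposite directions were found for 6 and 2 genes. Nothing in the labels ties a testis library to the round spermatid library of the same number.

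Most somatic lists had medians on the same side in round spermatids, the stromal one furthest from 0, while the endothelial median was -0.30. Stromal genes were higher for 17 of 18, where 13.9% of all genes were, with a median of +3.63. Their sum was 17.8, 34.8 and 18.2 RPM in WT1, WT2 and KO1 and 777, 696, 923 and 1543 RPM in Het1, Het2, KO2 and KO3. Dcn was at 0.175, 0.0490 and 0.478 RPM against 206, 177, 214 and 299 RPM, without the intermediate level of KO1 seen in testis. Sertoli cell genes were higher for 12 of 22, beside the same 13.9%, with a median of +1.43. Their sums were 52.6, 43.6 and 31.6 RPM against 177, 194, 386 and 395 RPM. Ribosomal protein genes were lower for 46 of 79, where 4.48% of all genes were, and higher for 4, with a median of -1.16. Elongating spermatid genes were lower for 6 of 15, and round spermatid genes for 2 of 27, beside the same 4.48%. Prm1 was at 149.6, 152 and 68.8 RPM against 49.1, 42.8, 54.2 and 13.1 RPM. The share of RPM from transcripts under 1000 bases was 12.5%, 11.98% and 10.5% in WT1, WT2 and KO1 and 5.88% to 7.12% in the others. The stromal, Sertoli cell and Leydig cell sums lay apart in the sorted cells, whereas the peritubular myoid, endothelial and erythroid sums overlapped. The leukocyte sums lay apart too, but Cx3cr1 made most of each. It was at 583 to 707 RPM in WT1, WT2 and KO1 and 954 to 1099 RPM in the others. Cx3cr1 was not itself counted as higher there, and Aif1 was lower in those others. The peritubular myoid sums were 157, 120 and 116 RPM against 132, 122, 112 and 122 RPM. Leukocyte genes were higher for 3 of 14 and endothelial genes for 1 of 7, beside 13.9% of all genes. The length shares moved with the lists that lay apart, and what part each had was not tested.

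Genotype can be set beside the split because KO libraries lay in both sets. KO against WT and Het together, 3 libraries against 3, gave 0 of 18570 genes (0.0%) at an adjusted p under 0.05 by limma on log2(RPM + 1), with Benjamini-Hochberg adjustment (two-sided, smallest adjusted p = 0.890, 477 genes at an unadjusted p under 0.05). Limma-voom on the recovered reads also called 0 (1015 at an unadjusted p under 0.05), and so did limma with the set as a covariate (2130). Limma with library quality weights called 13096 genes. That fit gave Het1 a weight of 0.108 and KO1 0.101, against 1.24 to 5.72 for the other libraries. Those others were WT1 and WT2 of the first set and KO2 and KO3 of the second. In that fit KO can therefore hardly be told apart from the split. Wfdc15a stood at -1.15 (SE 0.73, limma adjusted p = 0.890) without the set and at -0.55 (SE 0.28, limma adjusted p = 0.398) with it. These p-values take their error from the differences among the 6 libraries alone, and that error may be technical. With predicted genes left out, those with the lowest p were Pth1r, a parathyroid hormone receptor, at +1.88 (SE 0.50) and Slc43a1, an amino acid transporter, at +1.74 (SE 0.50), and Myo16, an unconventional myosin, at -2.38 (SE 0.64) and Lrrtm4, a synaptic adhesion gene, at -2.01 (SE 0.59). None of the 4 was counted in either direction between the sets. Genes chosen for setting KO apart from the rest can hardly be counted there, so nothing is read from this. WT libraries lay only in the first set and the Het library only in the second, so WT against Het cannot be told apart from the split.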

How the data were processed

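Per the labels, RNA of postnatal day 25 testis (about 2 ng per library) and of sorted round spermatids was sequenced by Smart-seq2. The authors deposited log2 RPM values for 30479 genes in 13 libraries. Per the submitters' processing notes, FastQC 0.11.8, Trim Galore 0.6.6, HISAT2 2.1.0 and the mm10 build were used. Neither the counting program nor its annotation is given in the sources used here. Each value was a whole number of reads (0.9 for no read, within 0.01 read) for 99.704% to 99.995% of testis values, so reads and totals were recovered, 7375270 to 18438704 per testis library and 10825690 to 20927428 per round spermatid library. The limit that a count of 0 allows was 0.163 to 0.407 RPM at 3 reads, which covers counting error only.

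Differences are of log2(RPM + 1) over genes that reached 1 RPM in 2 or more libraries; this scale understates the differences of low genes. KO was tested with limma 3.58.1 (R 4.3.3) with an intensity trend; the code was tested on simulated data, which says nothing of the power in these libraries. Python 3.11.15, numpy 2.4.6, pandas 2.3.3, scipy 1.17.1, statsmodels 0.14.6 and matplotlib 3.10.9 served the rest. TMM factors were computed from the recovered reads with code written for this purpose. Lengths and biotypes came from GENCODE M21, which matched 29497 genes (96.8%).

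Members and gene lists were chosen with earlier results of these data known. The rule for named genes took the 4 markers, Wfdc15a, the 12 genes with the widest gap in each direction, up to 4 members of each list with the highest mean RPM, and for genotype the 2 lowest p in each direction, leaving out predicted genes. Further list members named in the text were chosen after their values were seen. Some genes that the rule or the lists hold are not reported here by name.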

Additional observations from a re-analysis of the deposited data

How the results depend on the processing

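The split counts moved with the scaling. Centred libraries gave 2838 genes higher and 5449 lower in Het1, KO2 and KO3 testis, quantile normalisation 3945 and 3894, TMM rescaling 2773 lower, and a mean difference of at least 2 gave 4650 and 458. Leaving out each library in turn gave 8338 to 9155 higher and 1607 to 2103 lower. The cause of these moves was not tested, except that a stricter difference keeps fewer genes by construction. In round spermatids, with alternatives chosen after seeing the data, centring gave 1288 higher and 1871 lower and quantile normalisation 1421 and 1559; leaving out each library gave 2631 to 2899 higher and 723 to 1242 lower, the last without KO1. Among named genes counted as higher or lower, directions reversed for Cx3cr1 (-0.0153), Stag3 (-0.0114) and Sdha (-0.2538) with centred libraries and for Mael (0.0173) with quantile normalisation. Centring moves every gene alike, so named genes that were not counted and lay just above 0, such as Sycp3, Sqle, Dnah8 and Odf2, changed sign too. Of the other named gene values under these alternatives, 599 moved by less than the spread between libraries and 330 by more; of list medians, 115 and 74.

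For genotype, limma with library quality weights called 13096 genes (10188 up and 2908 down), with weights of 0.108 for Het1 and 0.101 for KO1 against 1.24 to 5.72 for the rest. The rest were WT in the first set and KO in the second, so KO and the split can hardly be told apart in that fit. All other limma fits run called 0, including each library left out (77 to 4379 genes at an unadjusted p under 0.05, the highest without Het1) and the replicate block (0 genes called, 82 at an unadjusted p under 0.05). Without Het1, every library left in the second set was KO. The labels of the samples share a number and state no pairing. Deviations of same-numbered WT and KO libraries from their genotype means correlated at 0.0208 and 0.0049. With 2 WT libraries these deviations mirror each other, so the values can neither show nor exclude a pairing. Depth limits low genes most in KO1.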
